A study of Mus musculus with 3 samples.

Results

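The genes described here encode the machinery of cyclic nucleotide, G protein and protein kinase signalling. They were chosen by symbol, as every gene in 3 deposited tables of cluster markers whose name belongs to a set of signalling families: cyclic nucleotide phosphodiesterases, adenylyl and guanylyl cyclases, G protein subunits and their RGS regulators, protein kinases A, C, D and G, DARPP-32, phospholipases C, diacylglycerol kinases, calmodulin-dependent kinases, exchange factors and activating proteins of small GTPases, the MAP kinase cascade with its Dusp phosphatases, and phosphoinositide 3-kinases with Sgk. The symbol pattern itself uses no measured value, but it was chosen with earlier results of these data known. It could also find only genes that the authors had listed as cluster markers. The rule found 47 of the 1039 genes that the tables hold, on 110 rows.

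A G protein-coupled receptor acts on adenylyl cyclase, which makes cyclic AMP, or on phospholipase C, which splits a membrane lipid into inositol trisphosphate and diacylglycerol. Nitric oxide acts on soluble guanylyl cyclase, which makes cyclic GMP. Kinases A, G and C read these messengers, phosphodiesterases and diacylglycerol kinases remove them, and RGS proteins speed the return of the G protein to its inactive state. In striatal medium spiny neurons, DARPP-32 joins dopamine and adenosine receptors to protein phosphatase 1, and this circuit is a textbook example of the pathway in brain.

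The tissue was the lateral septum, a forebrain region of mostly GABAergic neurons. The animals were 8 naive male littermates of the C57BL/6J strain, 3 months old, whose punches of 500 µm from sections of 200 µm were frozen and pooled, and the sorted nuclei gave 3 droplet libraries. All libraries form 1 group with no treatment, so the comparisons are between clusters of nuclei, and there are no replicates: no value below has an error over animals. Per the labels' protocols the punches may include parts of the medial or triangular septum, the prefrontal cortex or the striatum.

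The values are the authors' own. The first table covers all nuclei in 25 broad clusters, another the GABA neurons in 22 subclusters and the third a set labelled Sst in 8 subclusters. Each cluster has 50 genes, all with higher detection inside than outside and a log2 fold change of at least 1.0 against the other nuclei of the same table. A percentage below is the share of nuclei in which a gene was detected, inside the cluster and then in all nuclei outside it. A gene that is not among the 50 of a cluster may still differ there. The GABA and Sst nuclei are also part of the broad table, so values of matching clusters are not separate results. Depth per nucleus and the number of nuclei are unknown. Detection outside a cluster averages over all other clusters, and the part of free RNA in it was not tested. In the broad table, 7 of 9 markers of lateral septal GABAergic neurons were listed, but no more than 2 for any broad cluster. Medium spiny neurons had 7 of 8 markers listed, cortical excitatory neurons 8 of 10 and oligodendrocytes 8 of 8. Of the microglial, endothelial, mural and ependymal markers 0 were listed. Clusters are called by number, or as "like" a cell type where at least 3 markers outside the signalling families were listed.

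Signalling genes were listed for most clusters. In the broad table, 38 of 834 genes were members, on 49 of 1250 rows, and 22 of 25 clusters listed at least 1 of them; clusters 8, 10 and 23 listed none, and cluster 8 was astrocyte-like. In the GABA table the members were 36 of 705 genes, on 47 of 1100 rows in 19 of 22 subclusters, with none in subclusters 0, 1 and 7. In the Sst table they were 14 of 353 genes, on 14 of 400 rows in 7 of 8 subclusters, with none in subcluster 2. Of the 47 members, 10 were in all 3 tables, 21 in 2 tables and 16 in 1 table. Neither this split nor the number of clusters with a member was set against other listed genes. Set against the annotation, 47 of 339 protein-coding genes that fit the symbol pattern were listed somewhere, or 13.9%, where 4.46% of all 21923 protein-coding genes were listed. The median span of the members from start to end was 226 kb, against 128 kb over all listed genes, members included. The part of gene length in these counts was not tested.

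Families differed in how many of their annotated symbols were listed. The annotated counts take every protein-coding symbol that fits the pattern, so they can include genes outside a family. Phosphodiesterases had 11 of 26, protein kinases C, D and G with related subunits 7 of 29, phospholipases C 5 of 15, diacylglycerol kinases 3 of 10, cyclases 4 of 19 and RGS proteins 4 of 23. G protein subunits had 2 of 34. Of the MAP kinase and Dusp symbols 1 of 74 was listed, and that gene, Map2, encodes a microtubule protein that shares only the letters of the symbol. No phosphoinositide 3-kinase or Sgk gene was listed, of 19. Subunits of protein kinase A, which the pattern also covers, were not among the 7 kinase members.

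The sizes of the fold changes were near those of other markers or below them, while the differences in detection varied by table. In the authors' deposited table of broad clusters, 24 of 49 member rows had a log2 fold change of at least 2, or 49%, against 53.5% of all rows. The count was 14 of 47, or 29.8% against 38.5%, in the authors' deposited table of GABA subclusters. It was 6 of 14, or 42.9% against 39.8%, in the authors' deposited table of Sst subclusters. These shares lie close to the background or below it, so the members as a group did not stand out by fold change. Detection differed by at least 25 percentage points in 32 of 49 broad rows, or 65.3% against 55.4% of all rows. The count was 20 of 47 GABA rows, or 42.6% against 41.8%, and 3 of 14 Sst rows, or 21.4% against 39%. Most members were listed for 1 cluster of a table: 32 of 38 in the broad table, against 65.7% of all its genes, 28 of 36 in the GABA table, against 63.4%, and 14 of 14 in the Sst table, against 88.1%.

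**Figure D1:**
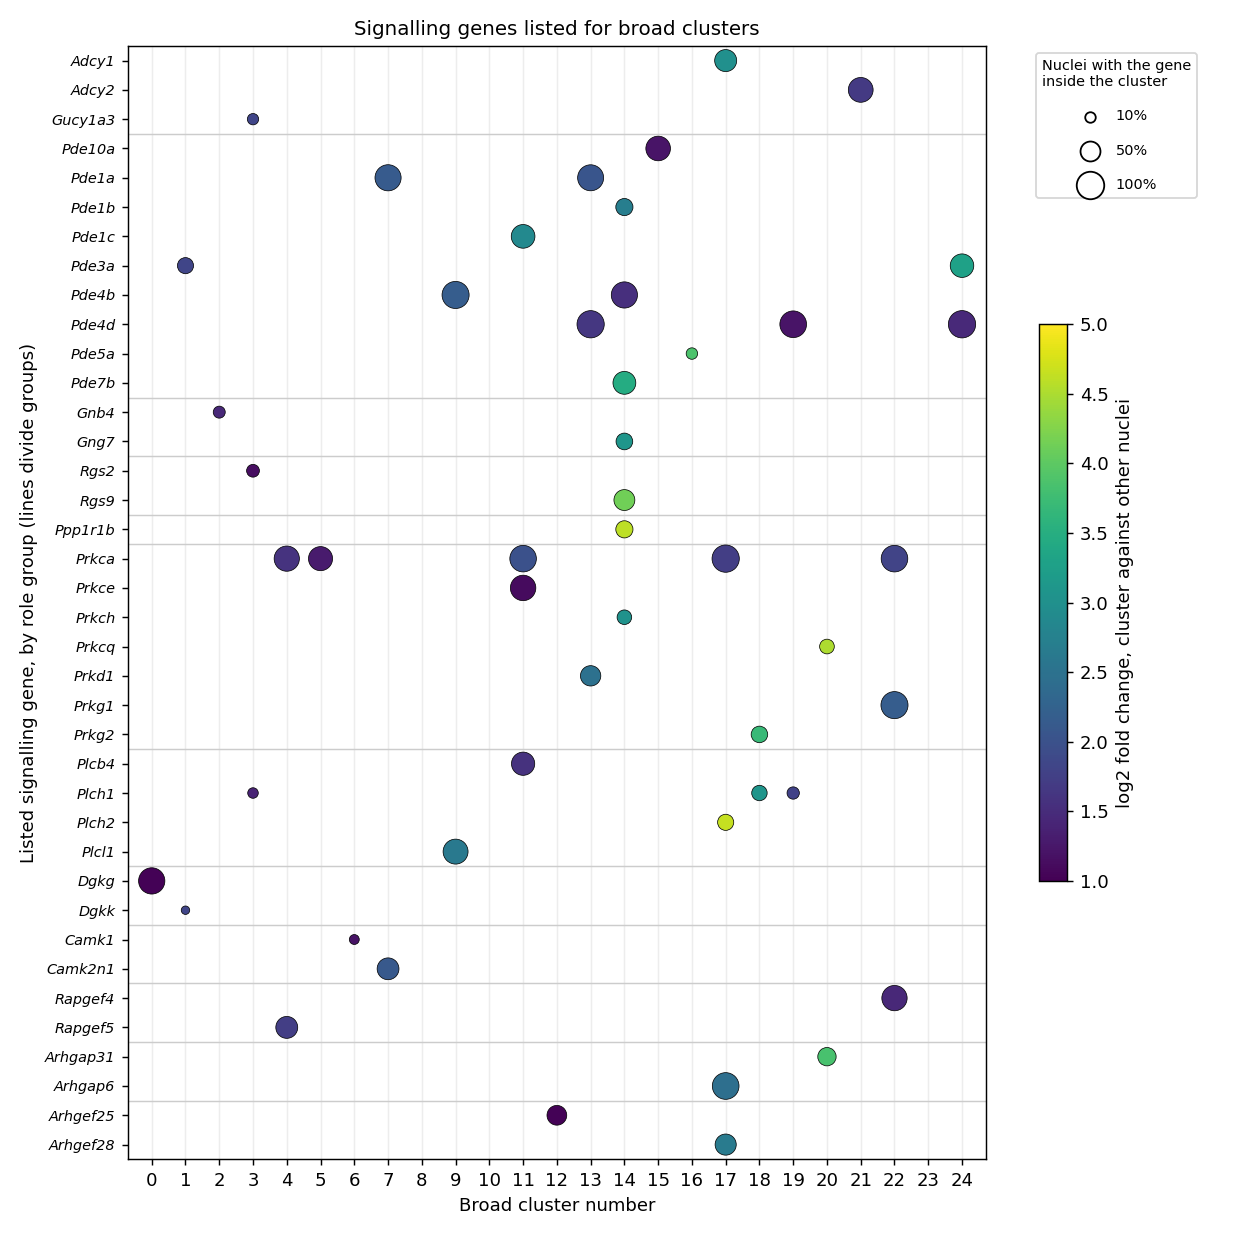
Members of the signalling families (rows, grouped by role) listed for each broad cluster (columns). Dot area follows the percentage of nuclei with the gene inside the cluster and colour the authors' log2 fold change; cluster 14 holds 7 members, cluster 17 holds 5, and clusters 8, 10 and 23 hold none.

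The densest set of members lay in the medium-spiny-like nuclei, broad cluster 14 and GABA subcluster 13, whose lists share 43 of 50 genes. Each listed the same 7 members, the most of any cluster in its table. They were Ppp1r1b, which encodes DARPP-32, the RGS protein gene Rgs9, the phosphodiesterase genes Pde7b, Pde1b and Pde4b, the G protein gamma subunit gene Gng7 and the protein kinase C eta gene Prkch. The same lists held the adenosine receptor gene Adora2a and the dopamine receptor gene Drd1, both of receptors that raise cyclic AMP in striatal neurons. Cluster 14 also listed 7 of 8 other medium spiny neuron markers, and subcluster 13 listed 6 of them.

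Because these 7 genes were listed together, the promoters of 4 of them are shown, from RefSeq on GRCm38.p6. Each window runs 5′ to 3′ along the gene's strand from 250 bases before a transcription start to 50 after it. Capitals mark the letters TGACG or, for a match on the other strand, CGTCA, the core of the site that binds the cyclic AMP-responsive factor CREB. Ppp1r1b and Prkch have no entry. For Pde4b, with 4 windows, and Gng7, with 2, the window that holds the letters is shown. The Rgs9 window is chr11:109298132-109298431, minus strand, just before the annotated gene. Those of Pde7b (chr10:20548279-20548578, minus strand), Gng7 (chr10:81001316-81001615, minus strand) and Pde4b (chr4:102421305-102421604, plus strand) lie inside the GENCODE span of their gene, at internal starts.
Rgs9: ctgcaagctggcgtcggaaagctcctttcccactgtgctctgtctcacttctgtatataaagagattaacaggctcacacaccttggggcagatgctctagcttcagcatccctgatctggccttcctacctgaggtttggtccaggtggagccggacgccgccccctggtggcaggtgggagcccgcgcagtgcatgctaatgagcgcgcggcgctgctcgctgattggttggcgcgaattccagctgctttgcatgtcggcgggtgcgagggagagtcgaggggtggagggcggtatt
Pde7b: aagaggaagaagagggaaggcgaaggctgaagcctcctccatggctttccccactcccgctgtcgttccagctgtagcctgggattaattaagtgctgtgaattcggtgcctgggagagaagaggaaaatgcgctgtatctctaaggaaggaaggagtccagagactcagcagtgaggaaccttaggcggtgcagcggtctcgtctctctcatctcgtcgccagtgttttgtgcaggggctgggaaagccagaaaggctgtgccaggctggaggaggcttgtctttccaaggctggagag
Gng7: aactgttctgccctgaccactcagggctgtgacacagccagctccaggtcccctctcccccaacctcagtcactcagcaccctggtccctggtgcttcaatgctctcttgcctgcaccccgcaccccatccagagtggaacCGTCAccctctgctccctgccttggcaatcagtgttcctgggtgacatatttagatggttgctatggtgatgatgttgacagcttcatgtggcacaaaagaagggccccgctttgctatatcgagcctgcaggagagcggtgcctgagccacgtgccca
Pde4b: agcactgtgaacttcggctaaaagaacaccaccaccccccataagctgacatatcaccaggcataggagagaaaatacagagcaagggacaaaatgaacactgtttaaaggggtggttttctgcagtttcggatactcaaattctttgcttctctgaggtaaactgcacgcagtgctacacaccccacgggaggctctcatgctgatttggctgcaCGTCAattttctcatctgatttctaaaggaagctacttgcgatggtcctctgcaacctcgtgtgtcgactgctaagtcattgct

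The letters were found in the windows of Gng7, at position -109 relative to the start, and Pde4b, at position -34, and not in those of Rgs9 and Pde7b. Pde1b had 3 windows and none held them. Over all 36 members with an entry, 9 of 63 windows held TGACG on either strand, or 14.3%, against 20.8% of 32851 mouse windows of the same length. The full element, TGAC followed at once by its reverse complement GTCA, was in 0 member windows, against 1.79% of all windows. A match of letters is no evidence of binding, and the lack of one says nothing about CREB at these genes.

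Ppp1r1b had the largest log2 fold change of the 7, while Pde7b and Rgs9 had larger differences in detection. In the authors' deposited table of broad clusters its log2 fold change in cluster 14 was 4.60, with detection in 35.6% of nuclei inside and 2.5% outside. In the authors' deposited table of GABA subclusters it was 4.66 in subcluster 13, with 35.8% inside and 2.4% outside. Subcluster 13 held 2.78% of the GABA nuclei but 29.9% of those with Ppp1r1b (29.4 to 30.3% from the rounding of the deposited fractions), so most nuclei with the gene lay elsewhere. These parts were computed from the shares of nuclei per cluster, which follow from the detection values of genes listed for several clusters. Among the Sst nuclei, subcluster 0 also listed Ppp1r1b, at a log2 fold change of 1.46 in the authors' deposited table of Sst subclusters, with 5.1% against 1.9% of nuclei. The gene was thus detected in a low share of nuclei there, although subcluster 0 held 51.0% of the Sst nuclei that had it.

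Rgs9, whose product shortens signalling of dopamine and opioid receptors in striatum, was detected in 55.4% of nuclei of broad cluster 14 against 6.1%, at 4.13 in the authors' deposited table of broad clusters. Pde7b, a cyclic AMP-specific phosphodiesterase, reached 67.2% against 13.3%, at 3.46 in the same authors' deposited table. Gng7 encodes the gamma subunit that pairs with the olfactory-type stimulatory alpha subunit in striatum, and was found in 33.4% against 5.4%, at 3.11 in the authors' deposited table. These 3 genes, and also Prkch and Pde1b, were listed for no cluster outside this matching pair. Prkch was the least often detected of the set, in 24.2% of nuclei against 4.0%, at 3.02 in the authors' deposited table. Pde1b, a calmodulin-activated enzyme, was detected in 35.6% against 8.5%, at 2.69 in the authors' deposited table. Pde4b was common in all nuclei: it was detected in 90.2% inside and 60.9% outside, with a log2 fold change of 1.54 in the authors' deposited table. In GABA subcluster 13 the 7 genes ran from 1.82 for Pde4b to 4.66 for Ppp1r1b in the authors' deposited table of GABA subclusters. Their median there was 3.18, against 3.41 for all 50 genes of that subcluster, and it was 3.11 in cluster 14, against 3.00 for all its genes. Ranked by fold change among the 50 genes of cluster 14, they ran from place 4 for Ppp1r1b and 9 for Rgs9 to 31 for Pde1b and 44 for Pde4b, so they spanned its list. Pde10a, another phosphodiesterase typical of medium spiny neurons, was listed only for broad cluster 15, and Adcy5, the main striatal adenylyl cyclase, was not listed in any table.

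**Figure D2:**
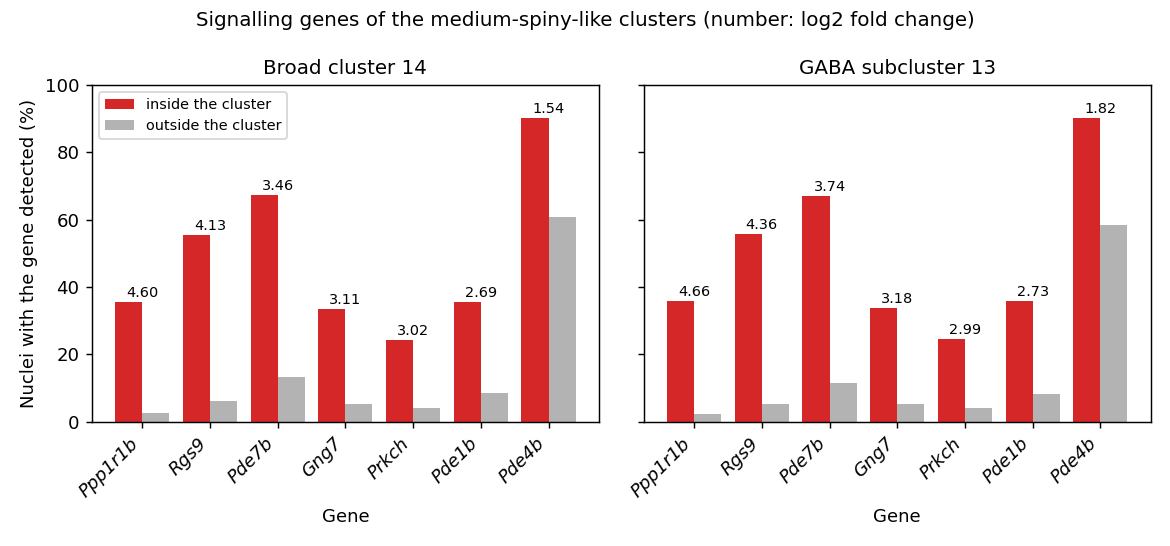
Percentage of nuclei with each of the 7 signalling genes inside (red) and outside (grey) the medium-spiny-like broad cluster 14 and GABA subcluster 13, with the authors' log2 fold change above each pair. Pde4b is widespread in both populations (90.2% and 60.9% in the broad table), while Ppp1r1b is in 35.6% inside and 2.5% outside.

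Phosphodiesterases had the most members of any family, and these were spread over many clusters, some of which listed several of them. The 11 genes filled 14 broad rows in 10 clusters, 12 GABA rows in 8 subclusters and 4 Sst rows in 3 subclusters. Of these, 8 broad rows, 6 GABA rows and 0 Sst rows had a log2 fold change of at least 2 in the authors' deposited tables, where the shares over all rows were 53.5%, 38.5% and 39.8%.

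The calmodulin-activated genes Pde1a, Pde1b and Pde1c, whose products degrade cyclic AMP and cyclic GMP, were listed for separate clusters. Pde1a marked broad cluster 7, which listed Slc17a7, with 89.7% of nuclei against 33.3%, and the cortical excitatory-like cluster 13, with 88.7% against 34.9%. Its log2 fold changes there were 2.13 and 2.06 in the authors' deposited table of broad clusters. Together the 2 clusters were 7.31% of nuclei and held 18.1% of those with Pde1a, and 31.9% of the other nuclei had it. Within neurons of the GABA and Sst tables Pde1a marked GABA subcluster 8, at 1.06 with 59.4% against 30.0%, and Sst subcluster 7, at 1.01 with 58.3% against 28.1%, in the authors' deposited tables. Pde1c marked broad cluster 11 and GABA subcluster 11, whose lists share 44 genes. It was detected in 72.7% against 22% of broad nuclei, at 2.89 in the authors' deposited table, and in 73.3% against 21.9% of GABA nuclei, at 2.96 in the authors' deposited table. Both clusters also listed Tacr1, the substance P receptor gene.

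Of the cyclic AMP-specific genes, Pde4d and Pde4b were detected in most nuclei. Pde4d was found in 75.9% of all broad nuclei, and its listed clusters 13, 19 and 24 reached 98.1%, 93.8% and 98.5%. Its log2 fold changes in them were 1.63, 1.22 and 1.45 in the authors' deposited table of broad clusters. In the neuron tables it marked GABA subclusters 15 and 21 and Sst subcluster 5, at 1.44, 1.54 and 1.68 in the authors' deposited tables. At such detection the percentage can hardly rise further, and the fold change carries the difference. Pde4b also marked the oligodendrocyte-like broad cluster 9, in 96.8% of nuclei against 60.1% and at 2.17 in the authors' deposited table, and Sst subcluster 7, in 84.8% against 54.8% and at 1.04 in the authors' deposited table.

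Pde8b, a cyclic AMP-specific enzyme with high affinity, was listed in the GABA and Sst tables and not in the broad table: GABA subcluster 3 had it in 37.0% of nuclei against 16.2% and Sst subcluster 0 in 36.9% against 15.6%. The log2 fold changes were 1.37 and 1.48 in the authors' deposited tables. Pde3a, whose activity on cyclic AMP is inhibited by cyclic GMP, marked 2 clusters in each of 2 tables. In broad cluster 24, led by Spp1 and Six3, it was found in 71.6% against 12.9% of nuclei, at 3.29 in the authors' deposited table, the widest gap in detection of any member row. That cluster was 0.24% of nuclei and held 1.32% of those with Pde3a. The larger cluster 1 had it in 30.8% against 10.9%, at 1.82 in the authors' deposited table, and held 25.9% of nuclei with the gene. The matching GABA values were 3.11 in subcluster 21, with 71.4% against 14.2%, and 1.73 in subcluster 6, with 36.7% against 13%, in the authors' deposited table.

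Pde5a and Pde11a were rarely detected. Pde5a, the cyclic GMP-specific target of sildenafil, was detected in 1.24% of broad nuclei and 1.30% of GABA nuclei. It marked the interneuron-like broad cluster 16, in 12.9% against 1.0% and at 3.87 in the authors' deposited table, and GABA subcluster 19, in 19.7% against 1.1% and at 4.32 in the authors' deposited table. Subcluster 19, which listed Vip and Cck, was 1.10% of GABA nuclei and held 16.6% of those with Pde5a (16.0 to 17.3% from rounding). It also listed Pde11a, of a dual-specificity enzyme, in 20.9% against 2.7% and at 3.98 in the authors' deposited table, and the RGS gene Rgs12, in 17.9% against 1.5% and at 3.89 in the authors' deposited table. Those 3 genes were the only members of that subcluster, next to the orexin receptor gene Hcrtr2. Pde10a, of another dual-specificity enzyme, was in 78.9% of nuclei of broad cluster 15 against 47.5%, at 1.20 in the authors' deposited table.

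**Figure D3:**
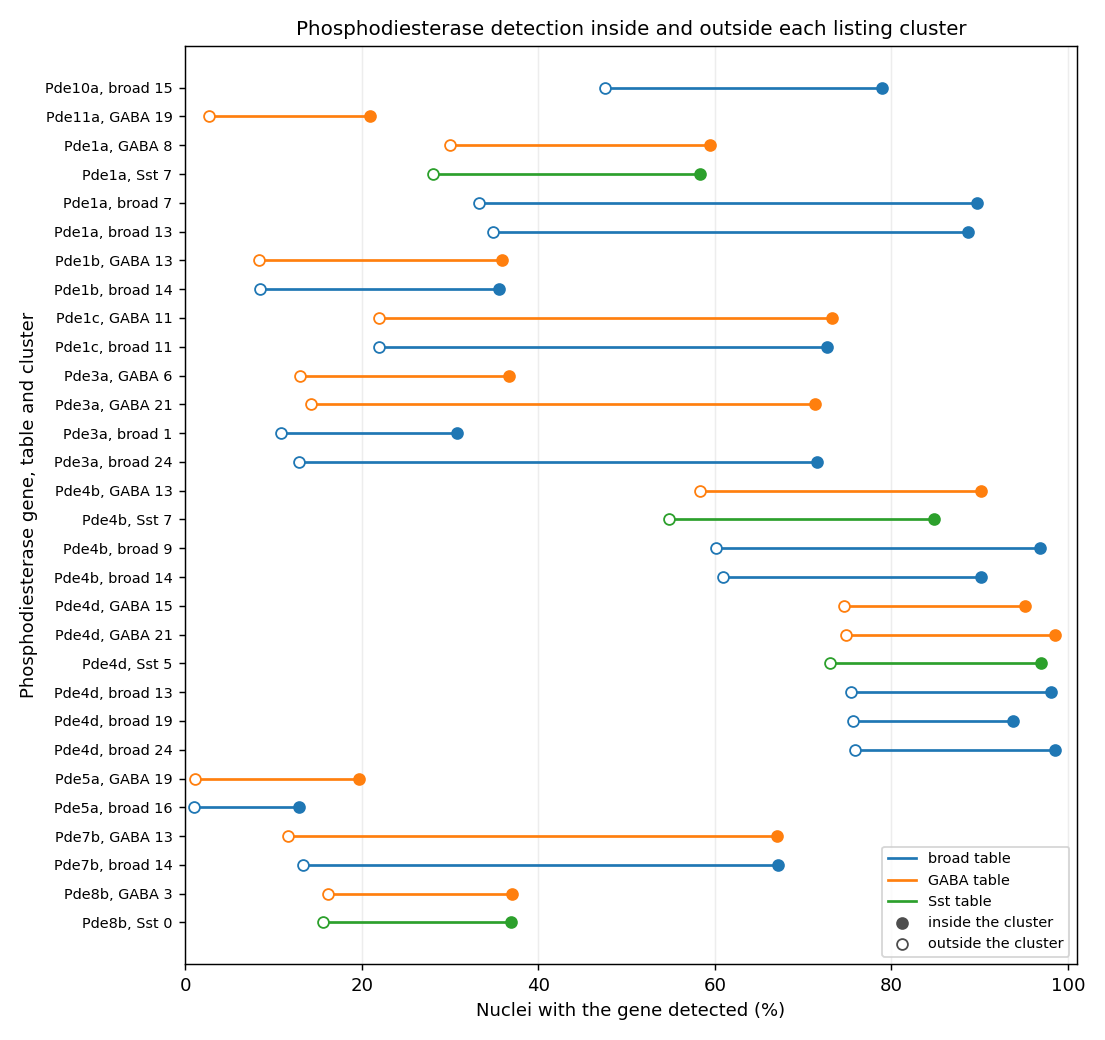
Percentage of nuclei with each phosphodiesterase gene inside (filled) and outside (open) every cluster that lists it, coloured by table. Pde4d and Pde4b sit at the right in both populations, Pde5a and Pde11a at the left, and the line of Pde3a in broad cluster 24 is the longest, from 12.9% to 71.6%.

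Of the 19 annotated genes of enzymes that make cyclic nucleotides, 4 were listed, where 13.9% of all genes with the symbol pattern were. The calmodulin-stimulated cyclase gene Adcy1 marked the cortical excitatory-like broad cluster 17, in 62.1% of nuclei against 11.5% and at 3.00 in the authors' deposited table. Adcy2 marked broad cluster 21, which listed Slc17a6, in 80.2% against 41.8% and at 1.68 in the authors' deposited table. Adcy8, also stimulated by calmodulin, marked GABA subcluster 10, in 34.9% against 17.7% and at 1.08 in the authors' deposited table. Each of these 3 cyclase genes was listed for 1 cluster of 1 table.

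Gucy1a3, now named Gucy1a1, encodes the alpha subunit of soluble guanylyl cyclase and was listed in all 3 tables. It was found in 12.5% against 3.7% of nuclei for broad cluster 3, at 1.82 in the authors' deposited table. GABA subclusters 3 and 9 had it in 9.4% and 13% of nuclei, at 1.32 and 1.79 in the authors' deposited table. Together these 2 subclusters were 13.7% of GABA nuclei and held 35.1% of those with Gucy1a3. Sst subcluster 0 had it in 9.6% against 3.3%, at 1.55 in the authors' deposited table. Broad cluster 3, GABA subclusters 3 and 9 and Sst subcluster 0 also listed Htr4, a serotonin receptor gene, and Gucy1a3 was listed for no cluster without it.

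Sst subcluster 0 gathered 4 members: Gucy1a3, Pde8b, Ppp1r1b and the protein kinase D gene Prkd1. It made up 27.9% of the Sst nuclei and held 47.9% of those with Pde8b, 51.0% of those with Ppp1r1b, 53.0% of those with Gucy1a3 and 56.5% of those with Prkd1. Its closest GABA list, subcluster 3, shares 30 genes with it and listed 3 of the 4, with Ppp1r1b missing. In GABA subcluster 3 the other members were Plch1 and Rgs2.

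G protein subunits and RGS proteins beyond the medium-spiny-like set were few. The beta subunit gene Gnb4 marked broad cluster 2, in 14.6% against 5.7% and at 1.45 in the authors' deposited table, and GABA subcluster 8, in 14.3% against 6.4% and at 1.08 in the authors' deposited table. No alpha subunit gene was listed. Rgs2, an RGS protein that prefers Gq, marked broad cluster 3 and GABA subcluster 3, at 1.15 and 1.12 in the authors' deposited tables. Rgs8 was listed only for Sst subcluster 5, in 7.5% of nuclei against 0.8% and at 3.40 in the authors' deposited table. That subcluster was 5.57% of Sst nuclei and held 35.6% of those with Rgs8 (34.1 to 37.3% from rounding), and it listed the kappa opioid receptor gene Oprk1, in 14.1% against 0.8%.

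Among the kinases, the conventional protein kinase C gene Prkca was listed for more clusters than any other member. Broad clusters 4, 5, 11, 17 and 22 had it in 75.4% to 98.2% of nuclei, at log2 fold changes of 1.29 to 2.00 in the authors' deposited table. GABA subclusters 2, 5, 11 and 18 had it in 79.6% to 92.3%, at 1.33 to 1.93 in the authors' deposited table. Those 4 subclusters were 21.0% of GABA nuclei and held 34.5% of nuclei with Prkca, and 42.0% of the other GABA nuclei had it too. Detection of Prkca was thus broad, with higher levels in several clusters. GABA subcluster 11 and broad cluster 11 listed it beside Prkce, Plcb4 and Pde1c, and with Itpr1, the inositol trisphosphate receptor gene, in 58.0% and 57.9% of their nuclei.

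Other kinase C genes marked single clusters. Prkce was at 1.11 in broad cluster 11 and at 1.07 in GABA subcluster 11 in the authors' deposited tables, in 84.8% and 84.0% of nuclei. Prkcq had a log2 fold change of 4.51 in the authors' deposited table of broad clusters in cluster 20, which carried markers of oligodendrocyte precursors and of newly formed oligodendrocytes. It was detected there in 24.6% of nuclei against 1.4%, and the cluster, 1.47% of nuclei, held 20.8% of those with Prkcq (20.2 to 21.4% from rounding).

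The kinase D and G genes divided by cluster as well. Prkd1 marked cortical excitatory-like broad cluster 13, in 52.2% against 11.7% and at 2.47 in the authors' deposited table. Further listings were GABA subcluster 3 and Sst subcluster 0, in 20.2% and 20.1% of nuclei, at 1.42 and 2.24 in the authors' deposited tables. The cyclic GMP-dependent kinase gene Prkg1 was in 68.7% of all broad nuclei and reached 96.7% in cluster 22, at 2.16 in the authors' deposited table. In neurons it marked GABA subclusters 16 and 18 and Sst subcluster 4, at 1.07, 2.13 and 1.37 in the authors' deposited tables. Prkg2, which encodes the other cyclic GMP-dependent kinase, was listed only for broad cluster 18, led by Ebf3 and Ebf2. It was detected there in 32.7% of nuclei against 3.2%, at 3.70 in the authors' deposited table. Over all broad nuclei Prkg2 was found in 3.71%, so the pair differed widely in how common they were.

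**Figure D4:**
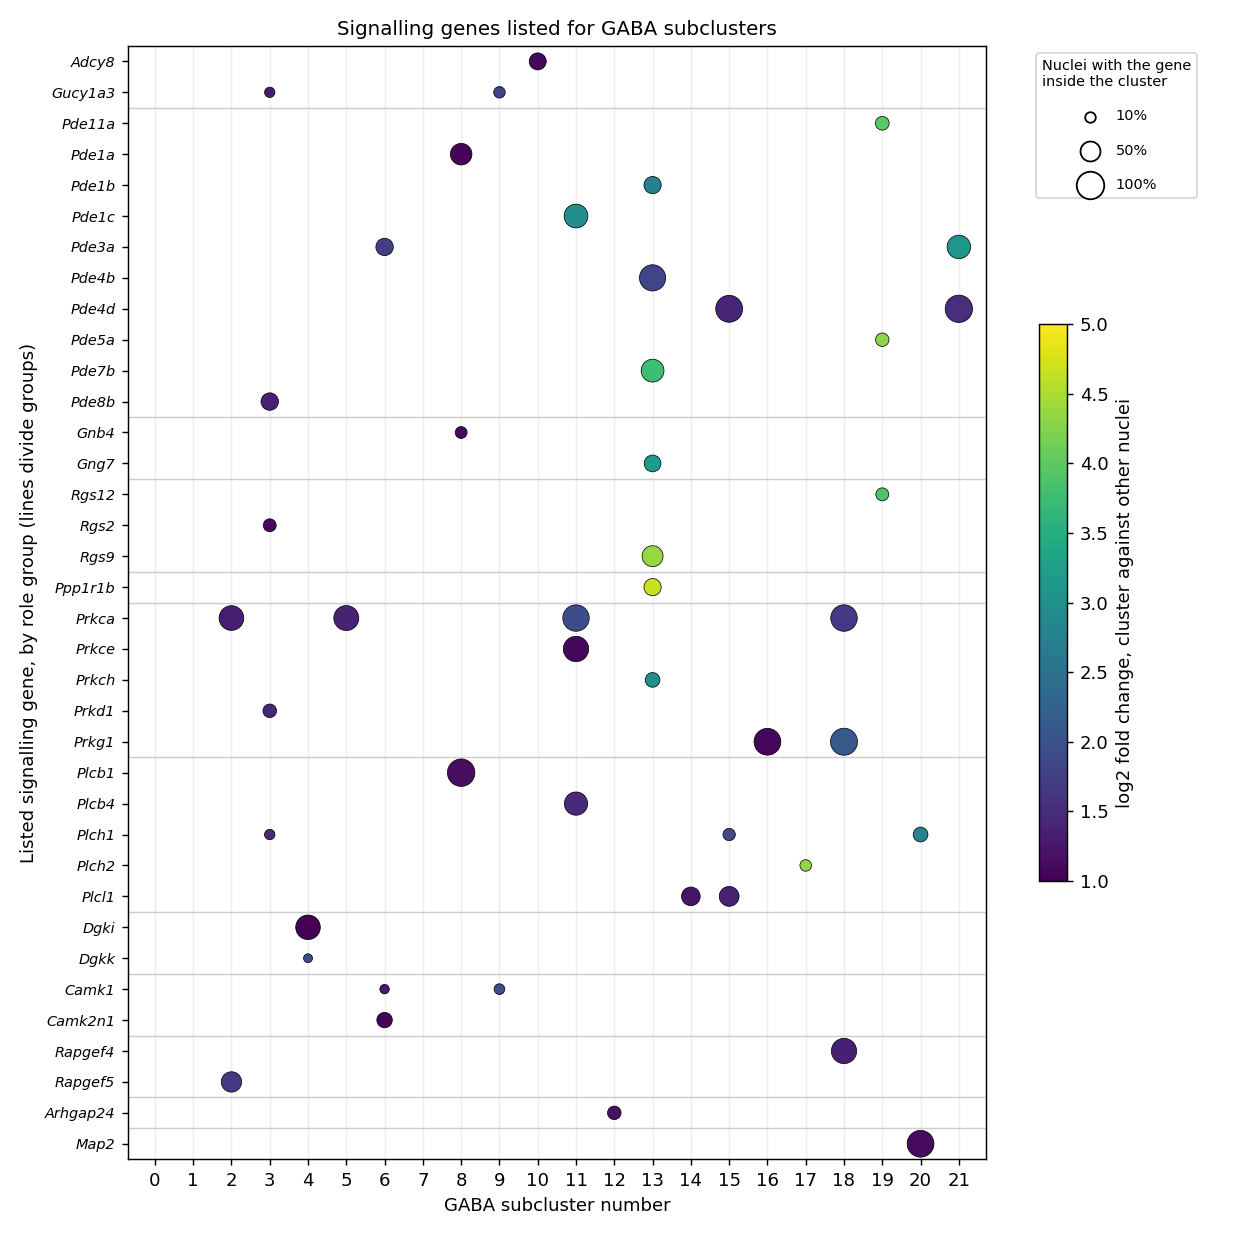
Members of the signalling families (rows, grouped by role) listed for each GABA subcluster (columns), drawn as for the broad clusters. Subcluster 13 holds 7 members, subcluster 3 holds 5, Prkca is listed for 4 subclusters, and subclusters 0, 1 and 7 hold none.

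Phospholipase C genes included the largest fold change of any member. Plch2, of the eta class, had a log2 fold change of 4.97 in Sst subcluster 6 in the authors' deposited table, with detection in 13.1% against 0.4%. This interneuron-like subcluster, led by Npy and Moxd1, was 5.19% of Sst nuclei and held 64.2% of those with Plch2 (61.4 to 67.3% from rounding). The matching GABA subcluster 17 had 4.33 in the authors' deposited table, with 13.1% against 0.6%. The highest detection of Plch2 was in the cortical excitatory-like broad cluster 17, in 30.8% against 1.6% and at 4.65 in the authors' deposited table. Overall detection of Plch2 was low, at 2.11% of broad, 0.80% of GABA and 1.06% of Sst nuclei. Its listed clusters were thus interneuron-like or cortical excitatory-like.

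Its relative Plch1 was spread over more clusters. Broad clusters 3, 18 and 19 had it in 10.1%, 27.8% and 15.7% of nuclei, at 1.39, 3.09 and 1.79 in the authors' deposited table. GABA subclusters 3, 15 and 20 had 1.48, 1.90 and 2.76, and Sst subcluster 1 had 2.17, in the authors' deposited tables. The 3 broad clusters were 10.6% of nuclei and held 32.0% of those with Plch1.

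Of the Gq-activated genes, Plcb1 was widespread. It was in 99.6% of nuclei of GABA subcluster 8 and of Sst subcluster 7, against 85.5% and 85.6%, at 1.13 and 1.21 in the authors' deposited tables. Plcb4 was in 69.8% of nuclei of broad cluster 11 and of GABA subcluster 11, against 33.3% and 35.8%, at 1.58 and 1.47 in the authors' deposited tables. Plcl1, a phospholipase C-like protein without enzyme activity, marked oligodendrocyte-like broad cluster 9, in 81.4% against 25.7% and at 2.62 in the authors' deposited table. It was also listed for GABA subclusters 14 and 15, at 1.20 and 1.36 in the authors' deposited table.

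Diacylglycerol kinases remove the activator of protein kinase C, and 3 of their genes were listed. Dgkk was listed with Drd3, the dopamine D3 receptor gene, for broad cluster 1, GABA subcluster 4 and Sst subcluster 3. It was detected in 4.5% against 1.5%, 5.6% against 1.7% and 5.7% against 1.4% of nuclei, at 1.81, 1.95 and 2.30 in the authors' deposited tables. Sst subcluster 3 was 22.3% of Sst nuclei and held 53.9% of those with Dgkk. Dgkg and Dgki had the smallest log2 fold changes of any member row of their tables, 1.02 in broad cluster 0 and 1.00 in GABA subcluster 4 in the authors' deposited tables, with detection of 90.8% and 78.7%.

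Of the calcium-dependent kinase genes, Camk1 was at low detection: 8.3% in broad cluster 6 and 7.0% and 10.6% in GABA subclusters 6 and 9, at 1.20, 1.26 and 1.94 in the authors' deposited tables. Camk2n1, an inhibitor of calmodulin-dependent kinase II, marked broad cluster 7 in 60.9% of nuclei against 18.9%, at 2.10 in the authors' deposited table. It was at 1.04 in GABA subcluster 6, with 27.9% against 15.4%, in the authors' deposited table.

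Regulators of small GTPases made up the rest. Rapgef4 encodes Epac2, which cyclic AMP activates directly, and marked broad cluster 22 and GABA subcluster 18, at 1.44 and 1.35 in the authors' deposited tables. Rapgef5 marked broad cluster 4 and GABA subcluster 2, at 1.72 and 1.67 in the authors' deposited tables. Both pairs of clusters also listed Prkca. Arhgap31, which inactivates Rac and Cdc42, was at 3.84 in broad cluster 20 in the authors' deposited table, in 41.5% against 4.6%. Arhgap24 marked GABA subcluster 12, at 1.16 in the authors' deposited table, and Arhgef25 marked broad cluster 12, at 1.03 in the authors' deposited table. Map2, the microtubule protein gene, was at 1.11 in GABA subcluster 20 in the authors' deposited table, in 94.6% against 70.6%.

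The cortical excitatory-like broad cluster 17 had the second largest set, with Adcy1, Plch2, Prkca, Arhgap6 and Arhgef28. Arhgap6 was in 93.9% of nuclei against 42.2%, at 2.45 in the authors' deposited table. Arhgef28 was in 56.8% against 12.4%, at 2.64 in the authors' deposited table, and was listed again for Sst subcluster 1, at 2.11 with 29.8% against 7.1% in the authors' deposited table. Prkca was in 98.2% of nuclei of cluster 17 against 49.1%, its highest detection in any cluster that listed it.

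Other genes of the same pathways were counted from a list chosen by role. Of 111 other pathway genes, 13 were listed in any table, where 4.46% of all protein-coding genes and 13.9% of those with a member's symbol pattern were. All were higher inside, since the tables hold no lower rows. Inositol phosphate and calcium genes had 4 of 14, regulators of small GTPases 5 of 32, and receptor kinases with arrestins 0 of 8. Downstream kinases had 0 of 15, of which 14 were in the annotation under the symbol used. These lists were matched by exact symbol, so a gene listed under another name would be missed. Of 46 upstream receptor genes 18 were listed, a larger share than either of those: 6 of 16 that couple to Gs or Golf, 8 of 18 to Gi and 4 of 12 to Gq. Both lists were drawn up with earlier results of these data known, so no conclusion is drawn from these shares. Ptpn5, which encodes the striatal-enriched phosphatase STEP, was listed only where Prkca was: broad clusters 4, 5 and 11 and GABA subclusters 2, 5 and 11. Its log2 fold changes ran from 1.04 to 1.66 in the authors' deposited tables. GABA subcluster 5 and broad cluster 5 paired Prkca with Crhr2, a corticotropin-releasing factor receptor gene, at 3.26 and 3.32 in the authors' deposited tables.

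Across tables, 28 members were listed for broad clusters and for GABA subclusters, and for 21 of them a GABA subcluster that lists the gene has, as its best match by shared genes, a broad cluster that lists it too. The match was taken from the GABA side only, and the shared genes behind it include the members themselves. The same count over all genes is not given, so no conclusion about the members is drawn from it. The exceptions include Plch2, listed for broad cluster 17 and for GABA subcluster 17, whose best match is broad cluster 16, and Prkd1, listed for broad cluster 13 and for GABA subcluster 3, whose best match is broad cluster 3. Set against cluster size, the most concentrated rows were Plch2 in GABA subcluster 17, Pde5a in GABA subcluster 19, Plch2 in broad cluster 17 and Prkcq in broad cluster 20, while Plcb1, Prkce, Pde4d and Map2 were the least concentrated members. A gene detected in most nuclei cannot be concentrated by this measure, so the low end of the ranking largely restates how common these genes were. Among rows with detection outside under 10%, the members' median log2 fold change was 3.06 in the broad table and 2.34 in the GABA table, against 3.18 and 2.46 for all such rows, in the authors' deposited tables. From 10% to under 50% outside it was 2.03 in the broad and 1.38 in the GABA table, against 1.71 and 1.44, and from 50% it was 1.45 and 1.35, against 1.44 and 1.32, in the authors' deposited tables. The members were thus above all rows in some of these strata and below in others.

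**Figure D5:**
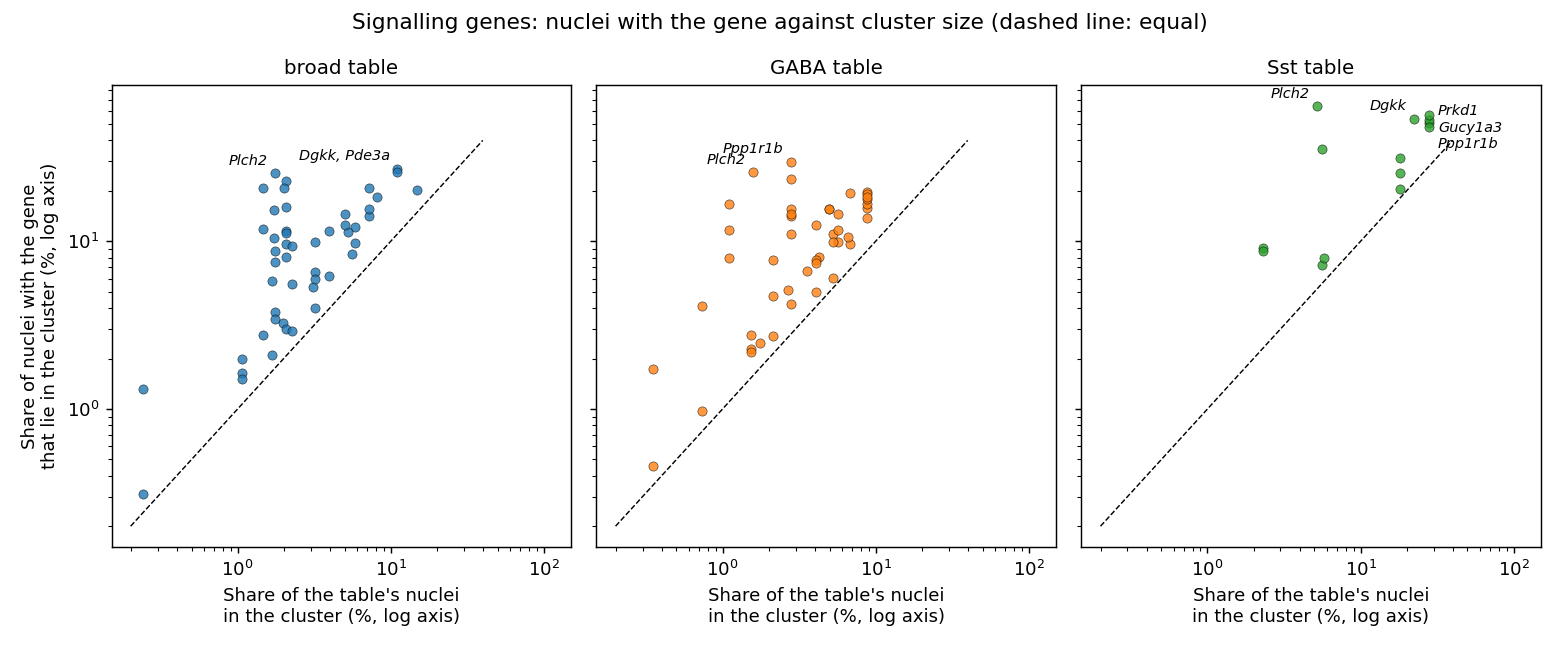
Share of nuclei with a gene that lie in the listing cluster against the share of the table's nuclei in that cluster, both on log axes, for every member row of the 3 tables. Points far above the dashed line of equality are concentrated, such as Plch2 in the Sst table (64.2% of nuclei with the gene in 5.19% of nuclei).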

How the data were processed

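Nuclei of 3 libraries from 1 pool of mice were measured by single-nucleus RNA sequencing with version 3 of a droplet kit, per the labels' protocols. The submitters' processing notes name Seurat 4 and the build mm10. The sources used here do not name an aligner, a filter on nuclei, a step against doublets or free RNA, the statistical test, or how GABA and Sst nuclei were selected. No cell-level counts were analysed here, so barcodes shared between libraries were not counted.

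The 3 deposited tables hold 50 rows per cluster. Per gene and cluster the authors deposited a mean log2 fold change against the other nuclei of the table, per the file headers. The pseudocount is not stated there. The authors give detection as a fraction of nuclei to 3 decimals, per the file headers, printed here as a percentage. The deposited p-value and adjusted p-value treat nuclei as independent and were used only as a filter. In every cluster the rows were ordered by the deposited p-value.

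Members were found by a symbol pattern, and members and lists were chosen with earlier results of these data known. Members named with full values were, per table, the 12 rows of largest log2 fold change, the 6 of largest difference in detection and the top gene of each role group. Members in 3 tables or in 3 clusters of a table, and all phosphodiesterases, cyclases, kinases and Ppp1r1b, were added. The rule named 40 of the 47 members. The other 7 (Arhgef25, Dgkg, Dgki, Gnb4, Plcb4, Rapgef4 and Rgs2) have some values printed beside their clusters, chosen after they were seen. No test was run, since there is 1 group of pooled nuclei.

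A gene listed for several clusters has the same overall detection whichever cluster it is computed from. Cluster shares that meet this condition were found by least squares, from 286 genes of the broad, 258 of the GABA and 42 of the Sst table. The method was tested on simulated data, with a largest error there of 0.0418, 0.0422 and 0.0397 percentage points for these tables in that order. The shares solved from the deposited values were not made to sum to 100%. Their sums were 100.029% for the broad, 100.764% for the GABA and 100.099% for the Sst table. The error of the shares on the deposited values was not tested. Ranges beside a part of nuclei cover the rounding of the deposited fractions only. Gene spans came from GENCODE M21 on GRCm38, the assembly of mm10, and promoter windows from RefSeq on GRCm38.p6. The scripts ran in Python 3.11.15 (numpy 2.4.6 and scipy 1.17.1 for the shares, pandas 2.3.3 for the tables, matplotlib 3.10.9 for the plots). The alternatives were other thresholds on fold and detection, an adjusted p under 0.001, which every row met, other rankings and 2 other solutions for the shares.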

Additional observations from a re-analysis of the deposited data

How the results depend on the processing

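The count of member rows past a log2 fold change of 2 follows the threshold: at 1.5 it was 37 in the broad and 24 in the GABA table, and at 3 it was 12 in the broad, 9 in the GABA and 2 in the Sst table. With detection inside of at least 25% it was 8 in the GABA and 1 in the Sst table, and with a detection difference of 25 points in place of the fold it was 3 in the Sst table. Members listed for 1 cluster were 14 of the GABA and 6 of the Sst table among rows past that fold, and 18 and 7 among rows with detection inside of at least 25%. These settings keep fewer rows by construction. For the alternative settings no shares over all rows or genes are given, except for the difference of 25 points. The other counts thus do not compare members with other markers. An adjusted p under 0.001 could change none of the counts of members, since every deposited adjusted p was already below it. Detection inside of at least 10% left 36 broad, 35 GABA and 10 Sst members. The other solutions for the shares moved the part of nuclei in a cluster by at most 0.317 percentage points and overall detection by at most 0.015. Ranking by detection difference placed 60 of 99 named rows higher in their list and 38 lower. The number of nuclei and their depth are unknown, which limits all values for genes detected in few nuclei, such as Dgkk, Plch2, Rgs8 and Pde5a. No paired analysis was possible because the libraries form 1 group and the tables hold no values per library, and for the same reason no library could be left out.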
